A study of Mus musculus with 6 samples.

Results

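The tumour necrosis factor (TNF) superfamily ligands and receptors were followed in megakaryocyte progenitors of GATA1s mice, comparing fetal liver with adult bone marrow. Members were chosen by annotated gene symbol: every symbol beginning Tnfsf or Tnfrsf before a digit, together with Tnf, Lta, Ltb, Ltbr, Cd40, Cd40lg, Cd27, Cd70, Fas, Fasl, Eda2r and Edar, each read from its brightest probe set with a single gene symbol. This rule found 39 of the 18193 genes named on the array. Of these, 13 encode ligands, 25 encode receptors and 1, Tnfsf13os, is a transcript of the opposite strand.

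All 6 samples came from C57BL/6 mice of the GATA1s genotype, in which the transcription factor GATA1 lacks its amino-terminal part. Flow sorting kept cells without lineage markers or Sca-1 that carried c-kit, CD150 and CD41. They came from bone marrow of adults aged 12 to 18 weeks (3 arrays) and from fetal liver at E13.5 (3 arrays), so tissue and developmental age change together and cannot be told apart. No sample with intact GATA1 was analysed here. The labels do not say how many animals gave each sample, and each p-value refers to the spread among these 6 samples alone. Values are Affymetrix signals in linear units. A gene was tested when its mean log2 signal over the 6 arrays lay above that of a signal of 22.9, and fold changes are log2 differences, positive where fetal liver is higher, with their standard error.

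TNF superfamily ligands are mostly trimeric membrane proteins that are presented by one cell to another or shed from its surface. Their receptors fall into 3 kinds: those with an intracellular death domain, which recruit adaptors such as FADD and TRADD and can start caspase-dependent death; those that bind TRAF adaptor proteins directly and mainly activate NF-κB and MAP kinases; and decoy or soluble receptors that bind a ligand without passing on a signal. In blood cell formation the family is known for the survival of B cells, the costimulation of T cells and the restraint of progenitor growth by TNF, Fas ligand and TRAIL.

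Most tested family members were lower in the fetal liver progenitors. Of the 39 members, 21 were tested, and 12 of these fell in fetal liver, 1 rose and 8 did not pass the test (limma, Benjamini-Hochberg adjusted p under 0.05 over the 11645 genes tested). Over all 11645 genes, 18.3% were called lower and 17.8% higher. In 13 members all 3 fetal liver arrays lay below all 3 bone marrow arrays, an arrangement seen in 23.7% of all genes, and in 1 member they lay above. The fall was 2-fold or more in 10 members, against 10.6% of all genes, and 4-fold or more in 7, against 5.4%. The median log2 fold change of the tested members was −1.03, against 0.04 over all genes. Of the tested members, 3 (Tnfrsf13c, Tnfrsf18 and Tnfsf13b) passed the filter only through bone marrow, where they were high. Among the 18 whose mean signal was above the filter in both tissues, 9 fell, against 16.2% of the 11014 genes with the same property.

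**Figure D1:**
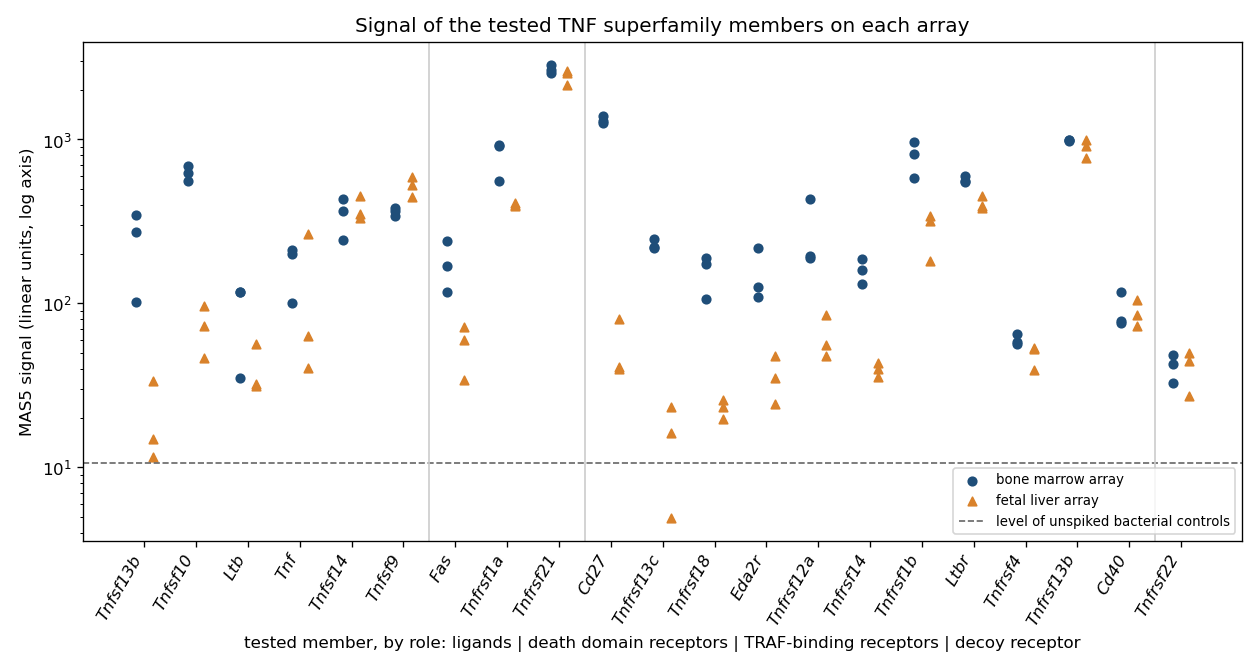
Signal of the 21 tested members on each array (vertical axis, linear MAS5 units on a log scale), with bone marrow arrays as circles and fetal liver arrays as triangles, grouped by role; the dashed line is the level of unspiked bacterial controls, 10.6. Cd27, Tnfsf10 and Tnfrsf13c show a wide gap between the tissues, whereas the arrays of Tnfrsf21, Tnfrsf13b, Cd40 and Tnfsf14 overlap.

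Genes for the surface markers used in the sort were present in both tissues. Itga2b, which encodes CD41, had signals of 3841 to 4912 in bone marrow and 3330 to 5307 in fetal liver. Slamf1, which encodes CD150, had 1842 to 2303 and 1014 to 3024. Kit was present on all arrays, at 1793 to 1909 in bone marrow and 960 to 1542 in fetal liver. Kit was called lower in fetal liver (log2 fold change −0.62 ± 0.16, limma adjusted p = 0.0141), and Itga2b and Slamf1 were not called. Markers of other blood cells differed between the tissues. Of 14 tested granulocyte and monocyte genes, all 14 were lower in fetal liver, with a summed signal over the listed genes of 57010 to 71420 in bone marrow and 7356 to 9303 in fetal liver. Itgam and Mmp8 of that list were under the control level, a signal of 10.6 set by unspiked bacterial probe sets, throughout fetal liver. All 6 tested macrophage genes were lower (1846 to 2241 against 307 to 328). Of 6 tested B cell genes 5 were lower (2833 to 4468 against 1294 to 1492). Most of the fetal liver sum came from Cd79b, which was not called, at 1328 to 1610 in bone marrow and 1121 to 1342 in fetal liver. Cd79a, Ms4a1, Pax5 and Blnk were below the control level on all fetal liver arrays, and Pax5 was below it in bone marrow too. Of the lower genes, 4 of the B cell list, 3 of the macrophage list, 3 of the mast cell and basophil list and 2 each of the granulocyte and monocyte and the dendritic cell lists passed the filter only through bone marrow. Of 7 tested mast cell and basophil genes, a list that holds Kit and Gata2, 6 were lower (12560 to 13930 against 7461 to 8588). Of 5 tested dendritic cell genes, 3 were lower and 1 higher, and none of the 4 tested T and NK cell genes was called (summed signal 1537 to 2154 against 1667 to 1893). In 9 of the 13 T and NK cell genes on the array, most of them untested, all fetal liver arrays nevertheless lay below all bone marrow arrays, and Cd3e, Cd4, Ncr1, Il2rb and Tbx21 were under the control level throughout fetal liver. Of 10 tested megakaryocyte genes 2 were higher (24540 to 28830 against 20090 to 36920), of 5 endothelial genes 3 were higher, of 6 erythroid genes 3 were lower and 1 higher, and of 4 hepatoblast genes 2 were lower and 1 higher. In bulk RNA, fewer cells of a type and less RNA per cell cannot be told apart, and the part of these marker differences in the results on the family was not tested.

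Promoter sequences were read for 30 of the 39 members from the RefSeq table of GRCm38.p6, covering 250 bases before and 50 bases from each start site. The interferon-stimulated response element core, GAAANNGAAA on either strand, was found at 3 of the 12 lower members (Tnfsf13b, the B cell survival factor BAFF; Tnfrsf14, the LIGHT receptor HVEM; and Tnfrsf1b, the second TNF receptor), at 4 of the 30 members and at 4.0% of the 27025 genes with a promoter in the table. The κB consensus, the site of NF-κB, was found at none of the 12 lower members, at 4 of the 30 and at 9.6% of genes; among the tested members, Ltb held it. The AGATAA motif bound by GATA factors was found at 1 of the 30 members, Tnfsf13b, and at 12.7% of genes. The ETS core CCGGAA was found at 5 of the 12 lower members and 16.7% of genes, the GAS element TTCNNNGAA at 4 of the 12 and 9.6%, and the TATA box TATAAA at 1 of the 12 and 15.7%. A match describes these letters only, and binding was not measured.

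The 100 bases before the start site are shown for the 3 lower members with an interferon-stimulated response element core and for Ltb with its κB site, 5′ to 3′ on the gene's own strand, the motif in capitals (on the opposite strand for Tnfrsf14, Tnfrsf1b and Ltb). They lie at chr8:10006533-10006632 (Tnfsf13b, plus strand, the second of its start sites), chr4:154928078-154928177 (Tnfrsf14, minus), chr4:145246871-145246970 (Tnfrsf1b, minus) and chr17:35194407-35194506 (Ltb, plus).
Tnfsf13b: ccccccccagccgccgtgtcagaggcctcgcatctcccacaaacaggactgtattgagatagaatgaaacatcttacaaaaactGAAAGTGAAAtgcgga
Tnfrsf14: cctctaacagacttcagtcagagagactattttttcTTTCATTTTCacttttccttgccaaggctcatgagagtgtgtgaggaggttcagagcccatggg
Tnfrsf1b: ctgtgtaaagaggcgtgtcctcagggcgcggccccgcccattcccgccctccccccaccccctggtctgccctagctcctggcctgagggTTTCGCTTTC
Ltb: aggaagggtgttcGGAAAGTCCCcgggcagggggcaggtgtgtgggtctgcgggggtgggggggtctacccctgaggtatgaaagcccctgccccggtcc
The motif lies 16 to 7 bases before the start of Tnfsf13b, 64 to 55 before that of Tnfrsf14, 10 to 1 before that of Tnfrsf1b and 87 to 78 before that of Ltb. The log2 fold changes of the 3 genes with the interferon element were −3.57, −1.999 and −1.51. These 3 were shown because they were called lower, so their sign follows from that choice. Tnfrsf17, which also held the element, was not tested. Ltb, at −1.03, was not called.

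Among the ligands, Tnfsf10, Tnfsf13b and Tnfsf9 were called. Tnfsf10 encodes TRAIL, which signals death through death domain receptors. Its signal was 560.0, 685 and 625 on the bone marrow arrays and 96.2, 46.5 and 73.0 on the fetal liver arrays. Every fetal liver value lay far below the lowest bone marrow value, and the 2 groups did not overlap. Tnfsf10 fell 9.02-fold, with a log2 fold change of −3.17 ± 0.26 (SE, n = 3 arrays per tissue) and a limma adjusted p of 2.46e-05. Its other tested probe sets gave −2.88 ± 0.21 and −2.67 ± 0.43.

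Tnfsf13b encodes BAFF, the B cell survival factor, which is made mainly by myeloid and stromal cells. Its signal was 102, 273 and 348 in bone marrow and 11.6, 14.9 and 33.6 in fetal liver. The groups did not overlap, although bone marrow replicate 1 was low for its tissue and 2 of the fetal liver values lay close to the control level. Tnfsf13b fell by 3.57 ± 0.53 on the log2 scale (limma adjusted p = 0.000825). On the first bone marrow array Tnfsf13b stood −1.60 from the mean of the other 2 on the log2 scale. By their medians the lowest marker lists of that array stood at −1.35 (erythroid), −0.92 (B cell) and −0.80 (T and NK cell). Mast cell and basophil genes stood at −0.56, granulocyte and monocyte genes at −0.30, dendritic cell genes at −0.14 and endothelial genes at −0.07. Hepatoblast genes stood at 0.06, megakaryocyte genes at 0.23 and macrophage genes at 0.34.

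Tnfsf9, which encodes 4-1BB ligand, a costimulator of T cells, was the member that rose. Its signal was 362 ± 21.1 (SD, n = 3) in bone marrow and 520.3 ± 74.0 in fetal liver, where all 3 arrays lay above all bone marrow arrays. The log2 fold change was 0.51 ± 0.15 (limma adjusted p = 0.0244). This call was lost without bone marrow replicate 3 (adjusted p = 0.0901), without fetal liver replicate 2 (0.0609) and without fetal liver replicate 3 (0.1), while the log2 fold change stayed between 0.42 and 0.62 over all 6 arrays left out in turn. Tnfrsf9, the receptor of this ligand, did not pass the filter.

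Tnf, the founding cytokine of the family, did not pass the test, and its arrays were widely spread. Its signal was 213, 101 and 199 in bone marrow and 264, 63.0 and 40.3 in fetal liver. Fetal liver replicate 1 held the highest value of all 6 arrays, while the other 2 fetal liver arrays lay below every bone marrow array. The log2 fold change was −0.89 ± 0.61 (limma adjusted p = 0.29); without fetal liver replicate 1 it was −1.69 (adjusted p = 0.00761), and without fetal liver replicate 3 it was −0.33 (adjusted p = 0.703). On the log2 scale, fetal liver replicate 1 stood above the mean of the other 2 arrays of its tissue by 2.39 for Tnf, by 1.68 for Tnfaip3 and by 1.24 for the median of the immediate early genes, which are switched on within minutes by many stimuli, including handling of cells. Fetal liver replicate 3 stood −1.68, −1.63 and −1.22 from the other arrays for the same 3 measures. By their medians the marker lists of fetal liver replicate 1 stood between −1.14 (megakaryocyte) and 0.66 (T and NK cell). Those of fetal liver replicate 3 stood between −0.18 (granulocyte and monocyte) and 0.44 (megakaryocyte). The part of this spread in the Tnf result was not tested.

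Ltb, the membrane-bound subunit that forms lymphotoxin heterotrimers, also missed the threshold. Its signal was 34.8, 117 and 118 in bone marrow and 31.3, 32.3 and 56.3 in fetal liver. Bone marrow replicate 1 lay among the fetal liver values, and the other bone marrow arrays lay above all of them. The log2 fold change was −1.03 ± 0.49 (limma adjusted p = 0.136), −1.61 without bone marrow replicate 1 (adjusted p = 0.00872), and −0.74 and −0.73 without replicates 2 and 3 (0.356 and 0.373). Tnfsf14, which encodes LIGHT, had overlapping groups, with 348 ± 95.3 in bone marrow and 379 ± 63.4 in fetal liver, a log2 fold change of 0.15 ± 0.22 (adjusted p = 0.631). A second Tnfsf14 probe set did not overlap, with 51.6 to 73.5 in bone marrow and 77.2 to 119 in fetal liver. It gave 0.61 ± 0.27 (limma adjusted p = 0.123).

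**Figure D2:**
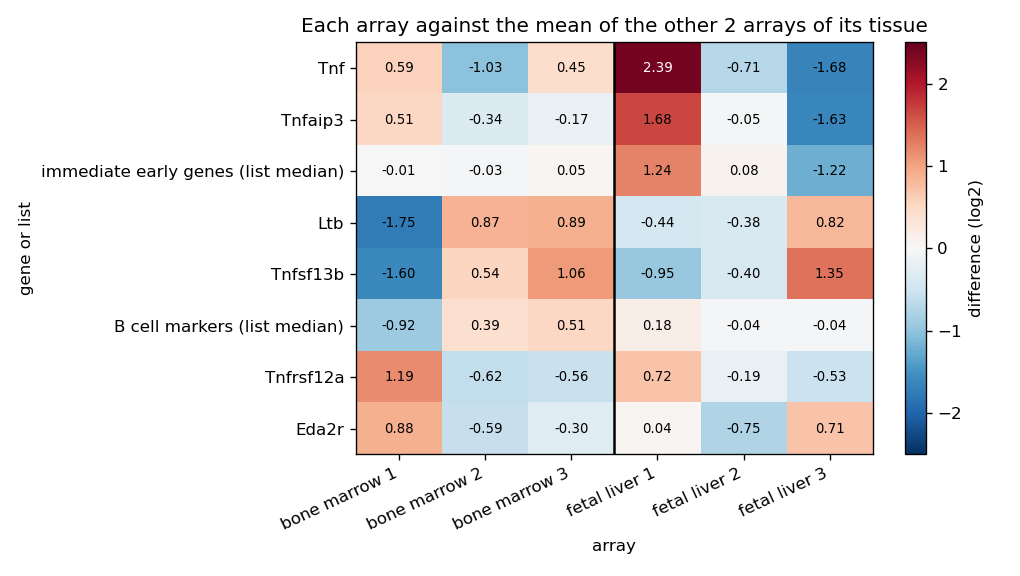
Difference of each array (columns) from the mean of the other 2 arrays of its tissue on the log2 scale (colour and printed value), for 6 genes and the medians of 2 gene lists (rows). Fetal liver replicate 1 is high in Tnf (2.39), Tnfaip3 (1.68) and the immediate early genes (1.24). Bone marrow replicate 1 is low in Ltb (−1.75), Tnfsf13b (−1.60) and the B cell markers (−0.92). On bone marrow replicate 1 the other marker lists, not shown, stood between −1.35 (erythroid) and 0.34 (macrophage).

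Of the 3 tested receptors with a death domain, Fas and Tnfrsf1a fell, where 18.3% of all genes were called lower. Fas, the receptor for Fas ligand, had signals of 117, 239 and 168 in bone marrow and 34.2, 60.1 and 71.3 in fetal liver. The groups did not overlap, and Fas fell 3.18-fold (log2 fold change −1.67 ± 0.35, limma adjusted p = 0.00586). Tnfrsf1a, the widely expressed first TNF receptor, had 795 ± 206 in bone marrow against 400.2 ± 10.85 in fetal liver, a log2 fold change of −0.95 ± 0.19 (adjusted p = 0.0048). Bone marrow replicate 1, at 557, was the lowest of its tissue and still lay above the highest fetal liver value of 412. Tnfrsf21, or death receptor 6, was at 2686 ± 149 and 2427 ± 249 with overlapping arrays (log2 fold change −0.15 ± 0.10, adjusted p = 0.269).

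The receptors that bind TRAF proteins numbered 16, of which 11 were tested, 8 fell and none rose. Over all genes, 18.3% were called lower and 17.8% higher. Of the 8, Tnfrsf13c and Tnfrsf18 passed the filter only through bone marrow. Cd27, the receptor for CD70 and a marker of lymphoid and early blood progenitors, had signals of 1261, 1382 and 1292 in bone marrow and 80.6, 41.05 and 40.04 in fetal liver. The 3 bone marrow arrays were close together and all fetal liver arrays lay far below them. Cd27 fell 25.7-fold, with a log2 fold change of −4.68 ± 0.26 (limma adjusted p = 2.87e-06), and over the 6 arrays left out in turn and the pair of first replicates left out together the value stayed between −5.04 and −4.51.

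Tnfrsf13c, which encodes the BAFF receptor of B cells, had signals of 219, 247 and 217 in bone marrow and 16.2, 23.2 and 4.91 in fetal liver. The groups were far apart, and 1 of the 3 fetal liver values was under the control level of 10.6. Its log2 fold change was −4.21 ± 0.52 (limma adjusted p = 0.000269), and −3.55 without fetal liver replicate 3, which held that lowest value. Tnfrsf13b, or TACI, which also binds BAFF, did not differ beyond its spread: 989 ± 7.70 in bone marrow and 891 ± 112 in fetal liver, a log2 fold change of −0.16 ± 0.12 (adjusted p = 0.332). The B cell genes Cd79a and Ms4a1 were below the control level in fetal liver. On bone marrow replicates 1, 2 and 3, Cd79a had signals of 235, 441 and 449 and Ms4a1 had 197, 327 and 422. Both were lowest on replicate 1, whereas Tnfrsf13c had 219 there and 217 on replicate 3. Ebf1, Igll1 and Vpreb1 of that list were also lower but stayed above the control level in fetal liver. Cd79b overlapped and was not called, at 1328 to 1610 in bone marrow and 1121 to 1342 in fetal liver. The part of B cells in the Tnfrsf13c result was not tested.

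Tnfrsf18, which encodes GITR, a costimulatory receptor of T cells, had signals of 107, 174 and 190 in bone marrow and 23.4, 19.7 and 25.7 in fetal liver. The fetal liver arrays were tightly grouped near the filter and all lay below bone marrow. Its log2 fold change was −2.74 ± 0.31 (limma adjusted p = 0.000157). Tnfrsf4, or OX40, the gene next to it on chromosome 4, had 59.9 ± 4.22 and 48.4 ± 8.08; its arrays did not overlap, yet the test was not passed (log2 fold change −0.32 ± 0.27, adjusted p = 0.394).

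Eda2r, the receptor for the A2 form of ectodysplasin, had signals of 217, 110 and 125 in bone marrow and 35.3, 24.4 and 48.0 in fetal liver. The groups did not overlap, with bone marrow replicate 1 the highest, and the log2 fold change was −2.06 ± 0.35 (limma adjusted p = 0.00194). Tnfrsf12a encodes Fn14, the receptor for the TWEAK cytokine, which is induced by growth factors. Its signal was 435, 188 and 194 in bone marrow and 85.1, 55.9 and 47.7 in fetal liver. Bone marrow replicate 1 was again the highest, and the fetal liver arrays all lay below (log2 fold change −2.04 ± 0.36, adjusted p = 0.00218). A further probe set of Tnfrsf12a gave −4.83 ± 0.63, with 186 to 561 in bone marrow and 5.89 to 30.0 in fetal liver, 2 of its 3 fetal liver values being below the control level.

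Tnfrsf14, which encodes HVEM, a receptor for LIGHT, had signals of 132, 160 and 187 in bone marrow and 39.8, 35.5 and 43.6 in fetal liver. Its groups were clearly separated (log2 fold change −1.999 ± 0.24, limma adjusted p = 0.000268). Tnfrsf1b, the inducible second TNF receptor of blood cells, had 583, 811 and 962 in bone marrow and 340, 181 and 318 in fetal liver. These groups did not overlap either (log2 fold change −1.51 ± 0.26, adjusted p = 0.00207). A second, dim Tnfrsf1b probe set, at 20.7 to 33.3 in bone marrow and 21.1 to 24.5 in fetal liver, gave −0.18 ± 0.36 (adjusted p = 0.743).

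Ltbr, the lymphotoxin β receptor, fell by the smallest amount, from 569 ± 26.7 to 409 ± 38.8 (log2 fold change −0.48 ± 0.13, limma adjusted p = 0.0192). This call was lost after quantile normalization (adjusted p = 0.0905) and after centring each array on its median (0.0917). It was also lost without bone marrow replicate 2 (0.0675), without bone marrow replicate 3 (0.0573) and without fetal liver replicate 3 (0.0724).

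Cd40, the costimulatory receptor of B cells and myeloid cells, gave different answers from its 3 tested probe sets. The brightest, used here by rule, had 118, 77.7 and 76.3 in bone marrow and 72.8, 85.3 and 106 in fetal liver, with overlapping arrays (log2 fold change −0.03 ± 0.27, limma adjusted p = 0.939). The second had 86.8, 115 and 87.4 against 22.2, 38.7 and 22.9, and the third 51.4, 44.0 and 52.6 against 14.3, 6.58 and 18.2. Neither of these overlapped between the tissues, and they gave −1.82 ± 0.31 (adjusted p = 0.00206) and −2.04 ± 0.44 (adjusted p = 0.00732). With the mean of the probe sets Cd40 was called lower, at −1.30 (adjusted p = 0.00405). Tnfrsf22, a mouse decoy receptor for TRAIL, was the tested member of that kind, and its arrays overlapped (41.4 ± 8.17 and 40.5 ± 11.6, log2 fold change −0.06 ± 0.35, adjusted p = 0.914).

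**Figure D3:**
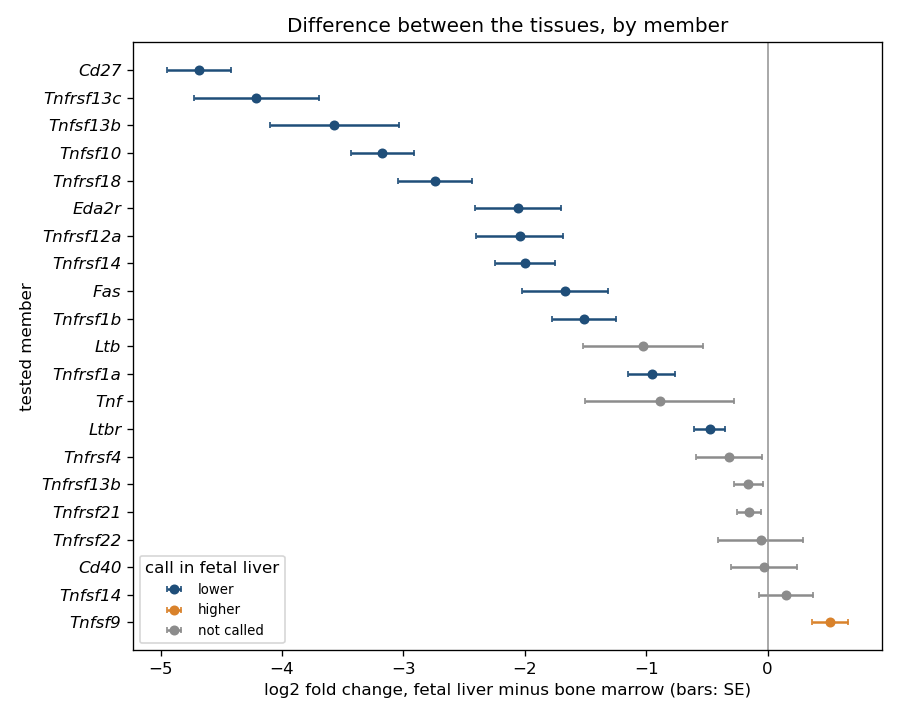
Log2 fold change of each tested member (horizontal axis, positive where fetal liver is higher), with bars of 1 standard error, coloured by its call. The values run from −4.68 for Cd27 to 0.51 for Tnfsf9, and the members that were not called have wide bars (Tnf, Ltb) or lie near 0.

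**Figure D4:**
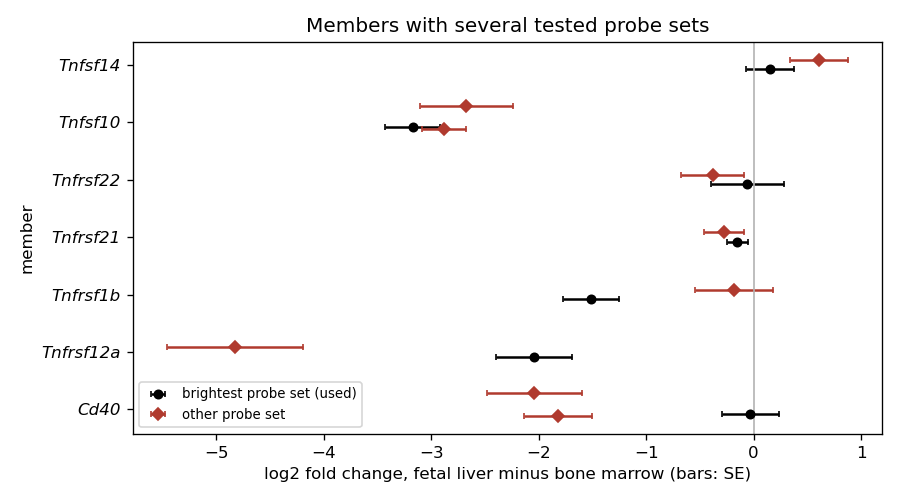
Log2 fold change (positive where fetal liver is higher) of every tested probe set of the 7 members with several, with bars of 1 standard error; circles are the brightest probe set, diamonds the others. The probe sets of Tnfsf10 lie close together at −3.17, −2.88 and −2.67, whereas those of Cd40 span −0.03 to −2.04.

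The other 18 members did not pass the filter, with signals on single arrays between 0.161 and 55.1. They are the ligands Cd40lg, Cd70, Fasl, Lta, Tnfsf4, Tnfsf8 and Tnfsf11, the receptors Edar, Tnfrsf8, Tnfrsf9, Tnfrsf10b, Tnfrsf11a, Tnfrsf11b, Tnfrsf17, Tnfrsf19, Tnfrsf23 and Tnfrsf25, and the transcript Tnfsf13os. In 12 of them all 6 arrays were below the filter signal of 22.9. Tnfsf4, which encodes OX40 ligand, had 55.1, 49.9 and 43.5 in bone marrow and 5.30, 8.58 and 7.16 in fetal liver. All its fetal liver values were below the control level, so it was at least 4.63-fold lower there. Tnfrsf19, or TROY, had 19.7, 31.9 and 44.6 against 4.75, 7.61 and 2.05, at least 2.85-fold lower on that probe set. Another Tnfrsf19 probe set ran the other way without overlap, with 8.56, 8.89 and 3.38 in bone marrow and 20.7, 22.4 and 13.1 in fetal liver, all below the filter signal. Both genes were, by their brightest probe set, among the members called when no filter was used, which raised the count from 12 to 15. Over all genes, 2284 of 18193 were called lower without a filter, against 2134 of 11645 with it.

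Ligands and their receptors were then set beside each other. Of 24 known pairs, both partners were tested in 7, and in 1 both fell: Tnfsf13b and its receptor Tnfrsf13c, both of which passed the filter only through bone marrow. In each of the other 6 pairs 1 partner was lower and the other was not called. Both TNF receptors, Tnfrsf1a and Tnfrsf1b, fell, while Tnf itself did not pass the test. The receptors of LIGHT, Ltbr and Tnfrsf14, fell, while Tnfsf14 did not pass. For Tnfsf10, Fas and Cd27, all lower, the listed partner (Tnfrsf10b, Fasl and Cd70 respectively) was not tested. The decoy Tnfrsf22, which was not among the listed pairs, was tested and not called. The partners of a pair need not be made by the same cell, and the other cells of either tissue were not measured.

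In the RefSeq gene table of GRCm38.p6, several members neighbour each other. On chromosome 6, Cd27, Ltbr and Tnfrsf1a follow each other with 1 protein-coding gene between each pair. All 3 fell, by 4.68, 0.48 and 0.95 on the log2 scale, where 18.3% of all genes were called lower. The Ltbr call was lost in 5 of 18 alternatives. On chromosome 4, Tnfrsf18 fell while the adjacent Tnfrsf4 was not called, and Tnfrsf1b fell while the adjacent Tnfrsf8 was not tested. On chromosome 17, Ltb, Tnf and Lta are adjacent, and none was called, Lta being untested. Also on chromosome 17, Tnfsf9, Cd70 and Tnfsf14 are adjacent, and of them Tnfsf9 rose, Tnfsf14 did not pass the test and Cd70 was not tested.

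Other genes of the pathway were counted by list. Of 24 tested adaptors, kinases and ubiquitin enzymes, 4 rose and 4 fell, shares near the 17.8% and 18.3% of all genes, with a median log2 fold change of −0.04 against 0.04 over all genes. Traf5, an adaptor of TRAF-binding receptors such as CD27, rose from 151 ± 16.1 to 282 ± 34.5 (0.89 ± 0.18, limma adjusted p = 0.00445). Fadd, the death domain adaptor, rose by 0.45 ± 0.12 (adjusted p = 0.0178). Traf1, an inducible adaptor, fell by 1.23 ± 0.35 (adjusted p = 0.0223), having passed the filter only through bone marrow, and Birc2, the ubiquitin ligase cIAP1, fell by 0.47 ± 0.09 (adjusted p = 0.00493). The other called genes were Tab1 and Tab2, which rose by 0.60 and 0.30, and Birc3 and Tab3, which fell by 0.43 and 0.38; these 4 were named after their values were seen.

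Of 9 tested inhibitors of TNF receptor signalling, 5 were lower and none was higher, with a median of −0.56, against 18.3% of all genes lower and 17.8% higher. Tnfaip3 encodes A20, a ubiquitin-editing enzyme that is itself induced by NF-κB. Its signal was 1865, 1260 and 1364 in bone marrow and 350, 158 and 76.0 in fetal liver. The groups did not overlap, and the fetal liver arrays were ordered as they were for Tnf, with replicate 1 highest and replicate 3 lowest (−3.19 ± 0.45, limma adjusted p = 0.000634). Tax1bp1 and Tnip1, which work with A20, fell by 0.56 ± 0.09 (adjusted p = 0.00116) and 0.57 ± 0.12 (0.00497), and Tnip2 fell by 0.50 ± 0.13 (0.0181). Nfkbie fell by 0.60, and Nfkbia, the classical NF-κB inhibitor, was at −0.59 ± 0.21 (adjusted p = 0.0558).

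The counts for death execution and for shedding were likewise near those shares. Of the 9 tested genes of death execution, Casp6 rose by 0.67 ± 0.16 (limma adjusted p = 0.0122), Bid rose by 0.31 ± 0.10 (0.0413) and Mlkl, the effector of necroptosis, fell by 0.82 ± 0.16 (0.00436). Of 8 genes for ligand shedding and processing, Timp3, an inhibitor of the TNF-shedding protease ADAM17, rose by 1.13 ± 0.32 (adjusted p = 0.0226), and Furin fell by 0.88 ± 0.10 (0.000157). Among 5 tested genes named for induction by TNF, Tnfaip2 fell by 1.28 ± 0.13 (9.28e-05), Tnfaip8 fell by 0.33 ± 0.11 (0.0402) and Tnfaip8l1 rose by 0.73 ± 0.19 (0.0142). Tnfaip6, untested, had 139, 110 and 179 in bone marrow and 0.697, 0.831 and 0.382 in fetal liver, at least 13.1-fold lower. Of 5 tested relatives outside the symbol rule 3 fell, Rell1 by 1.53 ± 0.11 (1.44e-05), Edaradd, which passed the filter only through bone marrow, by 1.18 ± 0.35 (0.0286) and Rell2 by 0.78 ± 0.22 (0.0246). Beside these, 17 of 22 immediate early genes fell and none rose, with a median of −1.63. For this list and for the relatives, the shares over all genes were 18.3% lower and 17.8% higher. Klf4 (−4.06 ± 0.18), Klf2 (−3.56 ± 0.30), Atf3 (−6.02 ± 0.60) and Ier5 (−1.99 ± 0.20) had the smallest adjusted p of the immediate early list. The part of the immediate early difference in the family's result was not tested. Traf3, Ripk1, Chuk and Tnip3 were not analysed here.

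**Figure D5:**
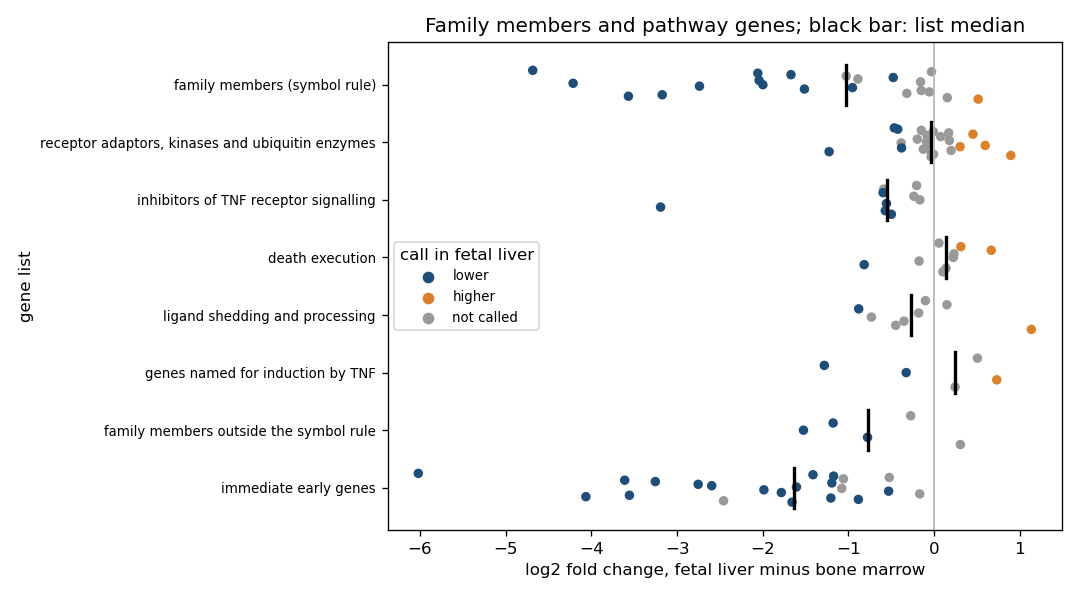
Log2 fold change (horizontal axis, positive where fetal liver is higher) of the tested genes of the family and of 7 related lists (rows), each point a gene coloured by its call, with the list median as a black bar. The family (median −1.03) and the immediate early genes (−1.63) lie to the left, while adaptors, kinases and ubiquitin enzymes centre near 0 (−0.04).

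Without the first replicate of both tissues, all 12 lower members and the higher one kept their calls (limma). Tnf and Ltb were then lower too, at −1.49 and −1.46 (adjusted p = 0.013 and 0.00864), but these arrays were left out because they stood apart in those genes among others, so these 2 calls follow from the choice. Fetal liver replicate 3 stood −1.68 from the other arrays of its tissue in Tnf, against 2.39 for replicate 1. Without fetal liver replicate 3, 11 members were lower.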

How the data were processed

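RNA of sorted GATA1s progenitors was hybridised to Affymetrix mouse arrays, 3 per tissue. The deposited intensity signals, on a linear scale, are the authors' MAS5 output, as the submitters' processing notes name that tool. No MAS5 version is given in the sources used here. Each array had a mean of 500 after trimming 2% at each end, and no pair was identical. Median signal was 65.9 to 74.6 in bone marrow and 52.0 to 59.1 in fetal liver. The number of arrays limits the precision.

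Of 45037 probe sets other than controls, the platform annotation gave 1 gene symbol for 34945, several for 932 and none for 9160, and only the first kind named a gene. Of the symbols, 34741 matched the RefSeq table of GRCm38.p6 by Entrez identifier. Log2 was taken of the signals without an offset. Probe sets with a mean above the 40th percentile were kept (27022), with the brightest per gene (11645 genes). limma 3.58.1 (R 4.3.3) fitted tissue alone with a trended prior, Benjamini-Hochberg adjustment and a threshold of 0.05. The control level, a signal of 10.6, is the 95th percentile over 27 bacterial control probe sets that were not spiked. For a gene below it on every fetal liver array, the fold is a lower bound against that level.

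Members, lists, tests and the control level were chosen with earlier results of these data known. Called members that changed 2-fold or more are given on every array, and up to 4 called genes per pathway list are named by smallest adjusted p, with exceptions marked. Motifs were searched on both strands. Same-numbered replicates of the 2 tissues deviated with r = −0.081, 0.071 and −0.109, so the numbers were not taken as pairs. Alternatives were quantile normalization, no filter or one at the 60th percentile, an offset of 7.54, median centring, a floor at the control level, other probe sets or their mean, array weights, no trend, a robust prior, the replicate number as a block, and leaving out each array. Leaving out both first replicates was added after seeing the data. Protein sequences were not used here.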

Additional observations from a re-analysis of the deposited data

How the results depend on the processing

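Over 18 alternatives fitted to all genes, 11 of the 12 lower members were called lower each time they were tested; the exception is Ltbr. Tnfrsf1b was not called on its dim probe set alone. Of 375 alternative values for members, 343 kept their direction and side of the threshold, 9 lost the call, 9 gained it and 14 changed sign, none of them of a called member. The members called lower numbered 11 to 13 over the arrays left out in turn (12 in the report) and 15 of 39 with no filter. With no filter, 2284 of all 18193 genes were called lower. The filter at the 60th percentile left 9 members to test and 5 lower. Over all genes it left 1402 lower, against 2134 in the report. The member called higher numbered 0 to 1 over the arrays left out. Over the 6 pathway lists without the immediate early genes, 8 genes were higher and 16 lower; these became 5 higher with no filter, 5 higher with no trend, and 17 higher and 10 lower after median centring. They ranged from 1 to 6 higher and 9 to 16 lower over the arrays left out. Genes called higher over the whole array (2074 in the report) numbered 3649 after median centring, 3169 with array weights and 1268 to 2193 over the arrays left out; median centring moved the median of all genes from 0.04 to 0.20. With the replicate block, where same-numbered samples share only a number, 12 members were lower and 1 higher, and over all genes 1856 were higher and 1991 lower. The sign changed for Cd40 with quantile normalization (0.28), median centring (0.13), array weights (0.26) and without both first replicates (0.30), and ranged from −0.17 to 0.17 over the arrays left out in turn. It changed for Tnfrsf22 with quantile normalization (0.28), median centring (0.10), and ranged from −0.22 to 0.20 over the arrays left out. It also changed for Tnfrsf4 with quantile normalization (0.0196), for Tnfrsf13b (0.0003) and Tnfrsf21 (0.0088) with median centring, and for Tnfsf14 without bone marrow replicate 1, with a range of −0.0818 to 0.33 over the arrays left out. The causes were not tested. Signals near the control level limit what can be said of the 18 members below the filter.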

Other observations

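Probe sets annotated to several genes were left out of the family by rule, and 3 of them carry family symbols. The probe set shared by Tnfsf12, Tnfsf13 and their fusion transcript Tnfsfm13 had signals of 549, 540 and 682 in bone marrow and 8.86, 11.8 and 8.34 in fetal liver. These genes encode TWEAK and APRIL, and the arrays of the tissues did not overlap. A probe set shared by Tnfsf12 and Tnfsfm13 had 155, 163 and 134 against 65.9, 59.3 and 61.0. The probe set shared by the decoy receptors Tnfrsf22 and Tnfrsf23 had 72.1, 101 and 91.6 against 39.8, 37.9 and 33.6. In each of the 3 all fetal liver arrays lay below all bone marrow arrays, an arrangement seen in 23.7% of the 11645 tested genes. The signal of these probe sets cannot be assigned to 1 gene.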
